A study of Homo sapiens with 4 samples.

Results

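The high mobility group genes studied here are 10 genes of small, abundant, non-histone chromatin proteins: HMGB1, HMGB2, HMGB3, HMGA1, HMGA2, HMGN1, HMGN2, HMGN3, HMGN4 and HMGN5. They were picked by gene symbol from a table of 25737 genes, where each symbol stood in 1 row. The rule uses no measured value, but it was set with earlier results of these data known. The counts come from 4 libraries, each made from RNA of cells that carry the label SKOV-3, an established human ovarian cancer cell line grown in McCoy's 5A medium with serum. In 2 of them the cells had received 40 µM of rosmarinic acid methyl ester (RAME, the methyl ester of a plant phenol) for 24 h, and in the other 2 the solvent DMSO. The study asked which transcripts differ after RAME, and no source states that libraries of a group came from separate cultures, so every p-value here measures only the spread between these libraries, which may be technical. Of the 10 genes, 8 had at least 1 read, and 6 passed the filter on low counts and were tested: HMGB1, HMGB2, HMGA1, HMGA2, HMGN2 and HMGN3.

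High mobility group proteins bind DNA or nucleosomes with little regard to base sequence and change the shape or openness of chromatin. The HMGB proteins hold HMG boxes that bend DNA, and HMGB1 also acts as a danger signal when it leaves the cell. The HMGA proteins grip the narrow groove of AT-rich DNA with short AT-hooks, are abundant in embryonic tissue and are often raised in tumours. The HMGN proteins bind the nucleosome itself, and both HMGB and HMGN proteins compete with linker histone H1 for nucleosomes.

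Promoter windows are shown for HMGB1 and HMGN3, the tested members with the most reads for which a window was found. Windows from RefSeq (GRCh38.p14), each of 300 bases from 250 before a gene's start to 50 after it, matched 8 of the 10 members, all but HMGB2 and HMGA2. The windows were searched on both strands for the letters CCAAT (NF-Y-like), TTTGAA (cell cycle homology region element), TTTNNCGC (E2F-like) and TGTTTA (forkhead-like). The HMGB1 window with the most CCAAT letters lies at chr13:30465887-30466186 on the minus strand and holds 3 of them, which begin 103, 59 and 28 bases before the start. The HMGN3 window lies at chr6:79234633-79234932 on the minus strand and holds 2, one on each strand. Capitals mark CCAAT or its reverse complement, and no other letters searched were found in these 2 windows. Of the other HMGB1 windows, one (chr13:30465191-30465490) holds 1 CCAAT, 115 bases before the start, and 1 TTTGAA, 246 bases before it, and another holds none of the letters. One of the HMGB3 windows holds 3 CCAAT and 1 TTTGAA, HMGN1 has 2 CCAAT, HMGN2 has 1 and both HMGA1 windows have 1 each, while HMGN4 and HMGN5 have none.
HMGB1: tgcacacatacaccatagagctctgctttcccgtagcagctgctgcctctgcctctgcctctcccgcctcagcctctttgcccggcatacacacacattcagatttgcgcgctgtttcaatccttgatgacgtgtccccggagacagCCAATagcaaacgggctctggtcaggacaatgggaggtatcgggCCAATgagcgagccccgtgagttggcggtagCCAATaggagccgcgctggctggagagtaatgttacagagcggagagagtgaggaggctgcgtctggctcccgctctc
HMGN3: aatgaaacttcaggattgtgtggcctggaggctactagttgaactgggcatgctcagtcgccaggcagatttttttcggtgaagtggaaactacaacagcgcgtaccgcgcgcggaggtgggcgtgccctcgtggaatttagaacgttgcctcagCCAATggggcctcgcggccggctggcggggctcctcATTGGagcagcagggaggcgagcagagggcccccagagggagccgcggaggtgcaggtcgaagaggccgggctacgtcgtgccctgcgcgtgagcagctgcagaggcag
Of all 35116 promoter windows 34.6% hold CCAAT, 15.2% hold TTTGAA, 6.89% hold TTTNNCGC and 12.3% hold TGTTTA. The letters are a description of the windows and not evidence of a bound factor.

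The sum of the counts over genes was 1441575 and 1777782 with RAME, against 2306379 and 2543566 with DMSO. Over all 4517 genes tested with edgeR (quasi-likelihood test, Benjamini-Hochberg adjustment), 612 genes or 13.5% were called at an adjusted p under 0.05. Of all tested genes 7.08% (320) were called lower and 6.46% (292) higher with RAME, a split that became 261 lower and 381 higher with upper quartile scaling, which moved the median of all genes by 0.11 on the log2 scale. Markers that define the labelled line were nearly absent: of 15 markers of SKOV-3 and ovarian epithelium 6 had 0 reads in all 4 libraries, among them ERBB2, which this line is known to carry in many copies, and the keratin genes KRT7 and KRT19. Their summed level was 18 and 8.44 CPM (counts scaled to a common library size) in the RAME libraries, against 12.1 and 8.65 CPM in the DMSO libraries, most of it from PAX8 (log2 fold change 0.58, adjusted p = 0.602 from edgeR). The 17 markers of other cell types summed to 15.3 and 18.6 CPM with RAME, against 23.4 and 29.1 CPM with DMSO, with 9 of them at 0 reads and 1 tested (COL1A2, log2 fold change −1.23, adjusted p = 0.142 from edgeR). Some genes of dividing cells were also near 0, such as PCNA (2 and 8 reads with RAME, against 4 and 0 with DMSO). Others were well read, such as STMN1 (1444 and 1858 reads with RAME, against 4465 and 3693 with DMSO). Whether the table could assign reads to the markers was not tested. The cells are therefore called by their label only, and the part of cell identity in the results was not tested.

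Among the HMG genes, HMGB1 and HMGB2 were lower and HMGA2 was higher in cells given RAME, while the tests of HMGA1, HMGN2 and HMGN3 did not pass. Thus 2 of the 6 tested members were called lower and 1 higher, beside 7.08% and 6.46% of all genes tested. The median log2 fold change of the 6 was −0.10, beside 0.00667 over all tested genes. In bulk RNA, fewer cells of a kind and less RNA per cell cannot be told apart, and this holds for each result below. In both RAME libraries HMGB1 and HMGB2 lay below both DMSO libraries, and HMGA1 and HMGA2 lay above both. Among all tested genes 29.5% lay below in this way and 31.2% above, so separation of 2 against 2 libraries is common here.

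**Figure D1:**
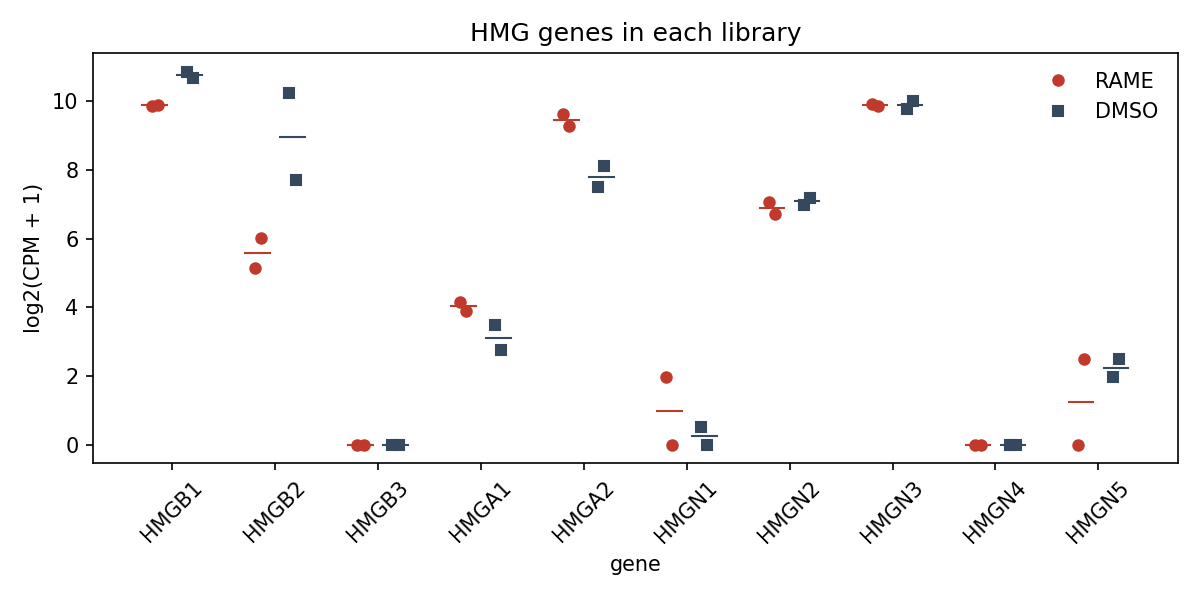
Level of each HMG gene, as log2(CPM + 1), in the 2 RAME libraries (red circles) and the 2 DMSO libraries (dark squares), with a line at the mean of each pair. HMGB2 shows the widest gap between the groups and also between the DMSO libraries (34.1 and 64.0 CPM with RAME, against 1220 and 207 CPM with DMSO), while HMGB3 and HMGN4 have no reads.

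HMGB1, the most abundant of the HMGB proteins and a general DNA-bending factor, had 1298 and 1627 reads in the RAME libraries, against 4457 and 4286 in the DMSO libraries. After scaling these were 943 and 946 CPM with RAME, against 1870 and 1650 CPM with DMSO, so that the libraries of each group lay close together and the groups did not overlap. HMGB1 fell to 0.536 times its DMSO level (log2 fold change −0.90, standard error 0.26, 95% interval −1.47 to −0.331, adjusted p = 0.0418 from edgeR). The size hardly moved when any 1 library was left out (−0.988 to −0.804), but the call was lost each time, with adjusted p = 0.192 without RAME replicate 1, 0.138 without RAME replicate 2, 0.161 without DMSO replicate 1 and 0.0502 without DMSO replicate 2. It was also lost with upper quartile scaling (log2 fold change −0.788, adjusted p = 0.0622 from edgeR).

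HMGB2, a close relative of HMGB1 that is most abundant in dividing cells and belongs to the SET complex, had 47 and 110 reads in the RAME libraries, against 2906 and 539 in the DMSO libraries. On the CPM scale HMGB2 averaged 49.1 ± 21.1 with RAME and 714 ± 717 with DMSO (SD, n = 2 each). The groups did not overlap, yet DMSO replicate 1 stood 5.89-fold above DMSO replicate 2. A gap of over 2-fold between the DMSO libraries (with 1 added to each CPM) was found in 11.4% of all tested genes with replicate 1 on top and in 3.9% with replicate 2 on top. Of the 320 genes called lower 111 had replicate 1 on top in this way, so that a high DMSO replicate 1 went with the lower calls, H1F0, PTTG1, TOX4 and CKS2 below among them, and its part in those calls beyond the fits without it was not tested. Of the 6 tested members, HMGB2 was the only one past 2-fold either way. HMGB2 fell to 0.0692 times its DMSO level (log2 fold change −3.85, standard error 0.75, 95% interval −5.55 to −2.16, adjusted p = 0.0146 from edgeR). Its log2 fold change was −2.07 without DMSO replicate 1, −4.63 without DMSO replicate 2 and −4.38 without RAME replicate 2. A fit that leaves 1 library in a group takes no spread from that group. Calls under such fits, here and for the other genes, therefore do not measure how well the libraries of that group match. The call was lost without RAME replicate 1, the library with the fewest HMGB2 reads (log2 fold change −3.48, adjusted p = 0.105).

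HMGB3, a relative of HMGB1 and HMGB2 best known from embryos and blood progenitors, had 0 reads in all 4 libraries. A count of 0 allows up to 3 reads over a group, or 0.932 CPM with RAME and 0.619 CPM with DMSO, provided that the table could assign reads to the gene. Whether it could was not tested, and some genes of dividing cells were also near 0, such as MKI67 (2 and 1 reads with RAME, against 1 and 1 with DMSO) and PCNA (2 and 8 reads with RAME, against 4 and 0 with DMSO), so HMGB3 is best read as listed at 0. Such limits and the intervals on reads given below cover counting error only, because copies of 1 molecule made by PCR are counted as separate reads. The balance of the HMGB genes differed between the groups, with 27.6 and 14.8 HMGB1 reads for each HMGB2 read in the RAME libraries, against 1.53 and 7.95 in the DMSO libraries. This ratio was higher in both RAME libraries than in either DMSO library, and the gap between the DMSO libraries came from HMGB2, since their HMGB1 levels differed by 1.14-fold.

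HMGA2, an AT-hook protein of embryonic and tumour cells whose messenger RNA is a classic target of the let-7 microRNAs, moved the other way. It had 1099 and 1081 reads in the RAME libraries, against 431 and 715 in the DMSO libraries, although the DMSO libraries were deeper. HMGA2 averaged 713 ± 120 CPM with RAME and 228 ± 66.5 CPM with DMSO (SD, n = 2 each), and the groups did not overlap. HMGA2 rose to 3.13 times its DMSO level (log2 fold change 1.64, standard error 0.318, 95% interval 0.948 to 2.34, adjusted p = 0.0106 from edgeR). HMGA2 was called at an adjusted p under 0.05 in every other fit of all 4 libraries, as was HMGB2. Over all 14 other fits its log2 fold change ran from 1.37 (without DMSO replicate 1) to 1.98 (without DMSO replicate 2), where "its" means that of HMGA2. The 14 include the fit with pseudogene reads added, which gave no reads to HMGA2 or HMGB2. They also include a block pairing opposite-numbered libraries, chosen after the data were seen.

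HMGA1, the other AT-hook gene, was read far less often, with 23 and 24 reads in the RAME libraries, against 24 and 15 in the DMSO libraries. These correspond to 16.7 and 14 CPM with RAME, against 10.1 and 5.77 CPM with DMSO, and the groups did not overlap. The log2 fold change of HMGA1 was 0.95 (standard error 0.571, 95% interval −0.303 to 2.20, adjusted p = 0.287 from edgeR), so a change between a slight fall and a rise of the size seen for HMGA2 is within its interval. HMGA2 had 47.8 and 45 reads for each HMGA1 read with RAME, against 18 and 47.7 with DMSO, and these ratios overlapped.

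**Figure D2:**
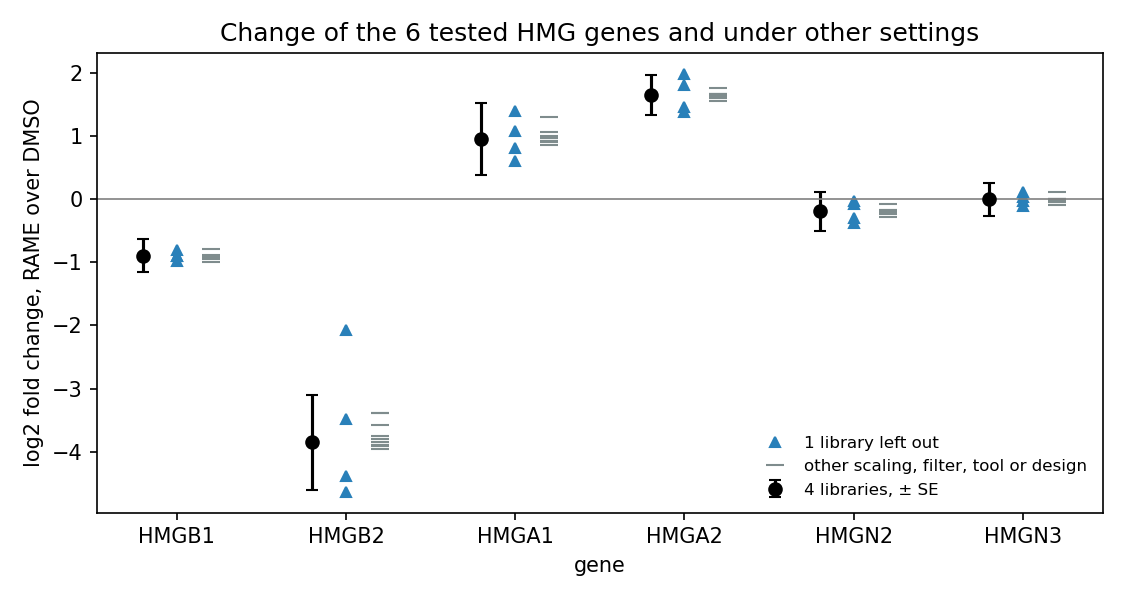
Log2 fold change of RAME over DMSO for the 6 tested HMG genes from all 4 libraries (black, ± standard error), with 1 library left out (blue triangles) and under other scalings, filters, tools or designs (grey dashes). HMGA2 stays between 1.37 and 1.98 and HMGB1 between −0.993 and −0.788, while HMGB2 spans −4.63 to −2.07.

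HMGN3 and HMGN2, which bind nucleosomes and loosen their packing, did not separate the groups. HMGN3 had 1341 and 1604 reads in the RAME libraries, against 2105 and 2677 in the DMSO libraries, or 974 and 933 CPM with RAME, against 885 and 1030 CPM with DMSO. The RAME values of HMGN3 lay between the DMSO values, and the log2 fold change came to −0.00609 (standard error 0.266, 95% interval −0.587 to 0.575, adjusted p = 0.992 from edgeR). Its sign turned with upper quartile scaling (0.105), without RAME replicate 2 (0.028) and without DMSO replicate 2 (0.108). HMGN2 had 183 and 180 reads with RAME, against 299 and 379 with DMSO, or 133 and 105 CPM with RAME, against 126 and 146 CPM with DMSO. The HMGN2 groups overlapped (log2 fold change −0.194, standard error 0.31, 95% interval −0.873 to 0.485, adjusted p = 0.719 from edgeR). These intervals do not show equal levels: that of HMGN2 reaches nearly to the log2 fold change of HMGB1. HMGN3 had 7.33 and 8.91 reads for each HMGN2 read with RAME, against 7.04 and 7.06 with DMSO.

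The remaining HMGN genes were barely read. HMGN5, an X-linked member with a long acidic tail, had 0 and 8 reads in the RAME libraries, against 7 and 12 in the DMSO libraries, a ratio of summed CPM of 0.634 with an exact 95% counting interval of 0.24 to 1.52 (exact binomial test on the reads, p = 0.329). HMGN1, the founding HMGN gene on chromosome 21, had 4 and 0 reads with RAME, against 1 and 0 with DMSO, a ratio of 6.03 with an interval of 0.596 to 297 (exact binomial test, p = 0.0862). These tests compare the libraries and not the conditions. HMGN4, an intronless relative of HMGN2, had 0 reads in all 4 libraries, within the same limits as HMGB3.

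Reads of these genes can be shared with copies elsewhere in the genome, and the members differed in this respect. In GENCODE 29 (GRCh38), 48 pseudogenes carry the name of HMGB1, 36 that of HMGN2, 31 that of HMGN1, 29 that of HMGB3 and 8 that of HMGA1, while HMGB2 and HMGN3 have 1 each and HMGA2, HMGN4 and HMGN5 have 0. The study's libraries start at the poly(A) tail, so stretches of 75 bases, the study's read length, were compared within the last 500 bases of each coding transcript. Of these stretches 16.1% in HMGB1, 7.47% in HMGN1, 4.15% in HMGB3, 3.27% in HMGN2 and 1.64% in HMGA1 occurred exactly in a transcript of another gene. For HMGB2, HMGA2, HMGN3, HMGN4 and HMGN5 the share was 0%. Only 3 pseudogenes named after a member stood in the count table, and of these HMGN2P46 had 14 and 29 reads with RAME, against 30 and 41 with DMSO, HMGA1P7 had 1 read in all and HMGB3P1 had none. Adding their reads to the parent genes gave none to HMGB1, HMGB2 or HMGA2, the called members, so this fit could not test their calls. HMGN2 and HMGA1, which gained reads, stayed uncalled. The part of shared reads in the values of HMGB1 was not tested. For the 8 members with reads, no row within 5 places repeated the counts, RPSAP52, on the opposite strand of HMGA2, had 1 read in all, and HMGN3-AS1, on the opposite strand of HMGN3, had 0 reads.

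Together the 10 genes took 0.277% and 0.261% of all reads in the RAME libraries, against 0.444% and 0.339% in the DMSO libraries. The HMGB genes made up 33.7% and 37.5% of these HMG reads with RAME, against 72.0% and 56.0% with DMSO. The HMGA genes made up 28.1% and 23.8% with RAME, against 4.45% and 8.47% with DMSO. The HMGN genes took 0.106% and 0.101% of all reads with RAME, against 0.105% and 0.121% with DMSO, so their share of the library overlapped between the groups while those of the HMGB and HMGA genes did not. This kit gives about 1 read for each transcript whatever its length, so reads were set side by side between genes. That step assumes that reads were assigned equally well to each gene, which was not tested. Of the 75-base stretches compared above, 16.1% in HMGB1 were shared with another gene, against 0% in HMGN3 and HMGA2. In the RAME libraries HMGB1 and HMGN3 had nearly the same number of reads (0.968 and 1.01 HMGB1 reads for each HMGN3 read). In the DMSO libraries this ratio was 2.12 and 1.60. HMGA2 reached 0.847 and 0.664 of the HMGB1 reads with RAME, against 0.0967 and 0.167 with DMSO. In order of CPM, HMGN3, HMGB1 and HMGA2 led with RAME, where the values of HMGB1 lay between those of HMGN3, and HMGB1 led with DMSO, where the values of HMGB2 reached from among those of HMGA2 to above those of HMGN3.

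**Figure D3:**
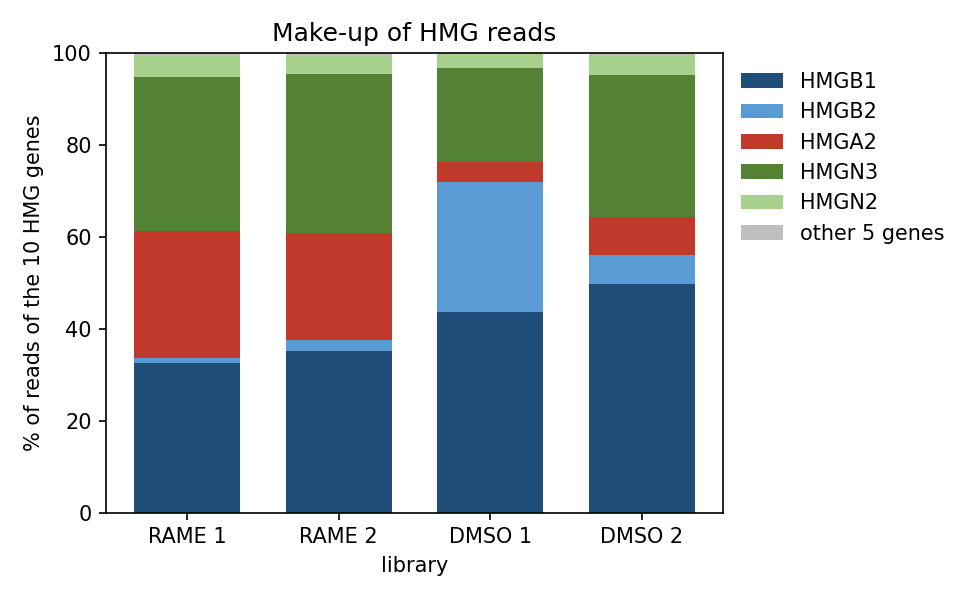
Share of the reads of the 10 HMG genes taken by each gene, in percent, in each library, with the 5 least read genes joined as 1 segment. HMGB1 and HMGB2 together take the larger part of both DMSO libraries (72.0% and 56.0%), while HMGA2 takes 27.5% and 23.3% in the RAME libraries, against 4.21% and 8.29% in the DMSO libraries.

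**Figure D4:**
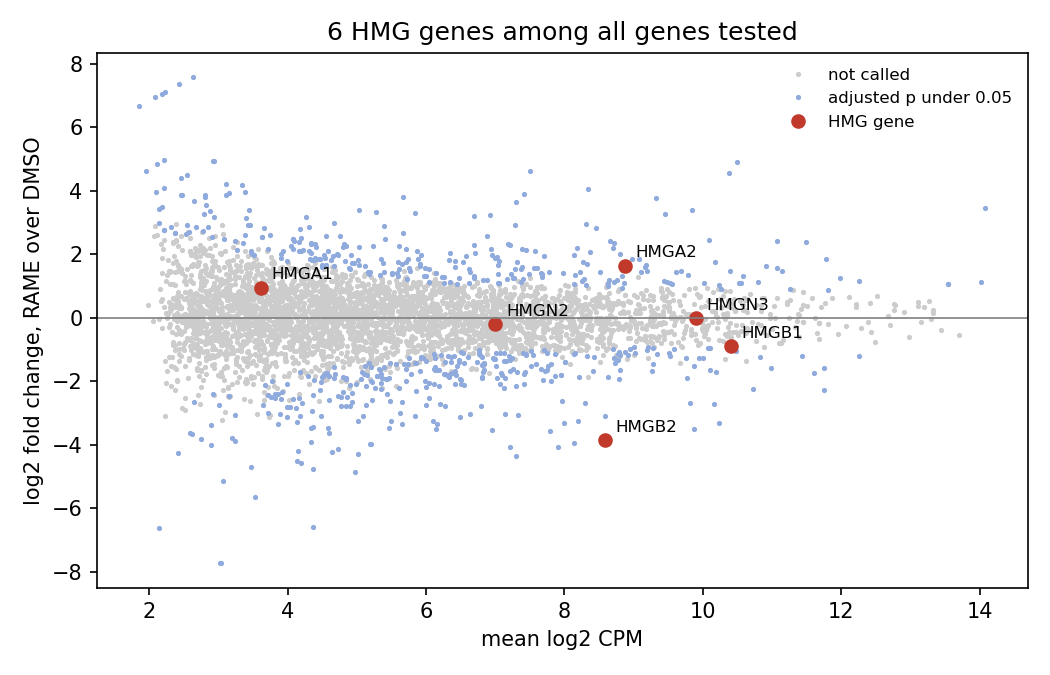
Log2 fold change of RAME over DMSO against mean log2 CPM for the 4517 genes tested (grey, not called; blue, adjusted p under 0.05), with the 6 tested HMG genes in red. HMGB2 lies at −3.85, HMGA2 at 1.64 and HMGB1 at −0.90.

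Other genes of the same chromatin setting were counted in lists of related function. The linker histones, which HMGB and HMGN proteins compete with on nucleosomes, had 3 tested genes of 10, with 2 lower and none higher, beside 7.08% lower and 6.46% higher over all tested genes. The median log2 fold change of the 3 was −3.11, the value of HIST1H1E. The other HIST1H1 genes had few or no reads. How well libraries that start at the poly(A) tail record the replication-linked linker histones was not tested. H1F0, the linker histone of resting and differentiated cells, had 25 and 25 reads with RAME, against 1010 and 331 with DMSO, so that both RAME libraries were far below both DMSO libraries. H1F0 fell (log2 fold change −4.08, standard error 0.562, edgeR adjusted p = 0.0028) and was called under every alternative run, with −2.96 without DMSO replicate 1 and −4.70 without DMSO replicate 2. H1FX, another linker histone outside the histone clusters, had 14 and 10 reads with RAME, against 78 and 62 with DMSO (log2 fold change −1.83, adjusted p = 0.0426 from edgeR), and its call was lost when DMSO replicate 1 or either of the RAME libraries was left out, with upper quartile scaling (adjusted p = 0.0531 from edgeR), with limma-voom (adjusted p = 0.0632) and after thinning to equal totals (adjusted p = 0.0581 from edgeR). HIST1H1E, a replication-linked linker histone with 7 and 0 reads with RAME, against 36 and 69 with DMSO, had a log2 fold change of −3.11 (adjusted p = 0.0503 from edgeR), and other fits moved it across the threshold. It was called when any 1 library other than RAME replicate 2 was left out, with library-size scaling (adjusted p = 0.0467 from edgeR), with DESeq2 (adjusted p = 0.0207) and with no filter (adjusted p = 0.000826 from edgeR). Without RAME replicate 2 it had −2.02 (adjusted p = 0.102 from edgeR), where the list held 1 call, and without RAME replicate 1 a fitted −8.55, where the remaining RAME library has 0 reads and the size depends on the prior count.

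Of 35 other genes with an HMG box or a related role, 15 were tested, 2 were lower and 1 was higher, with a median log2 fold change of −0.0208. Over all tested genes 7.08% were lower and 6.46% higher, so the number of higher genes in this list is near the background. HMGXB4, an HMG-box gene, had 49 and 57 reads with RAME, against 323 and 210 with DMSO (log2 fold change −1.65, adjusted p = 0.0168 from edgeR), a call lost without DMSO replicate 1. TOX4, an HMG-box subunit of a phosphatase complex on chromatin, had a log2 fold change of −2.03 (adjusted p = 0.0358 from edgeR), which was −1.33 and not called without DMSO replicate 1, nor was it called when either of the RAME libraries was left out or with limma-voom (adjusted p = 0.0837). HBP1, a transcriptional repressor with an HMG box, had 44 and 60 reads with RAME, against 27 and 27 with DMSO (log2 fold change 1.62, adjusted p = 0.0412 from edgeR), a call lost when any 1 library was left out, with DESeq2 (adjusted p = 0.0505) and after thinning (adjusted p = 0.0571 from edgeR). The count of lower genes in this list was therefore 0 without DMSO replicate 1, and 1 when a RAME library was left out. SOX4, a developmental transcription factor, had a log2 fold change of −0.83 (adjusted p = 0.0759 from edgeR).

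Of 16 histone chaperones 13 were tested, 1 was lower and 2 were higher (median log2 fold change 0.18). With 7.08% lower and 6.46% higher over all tested genes, the number of lower chaperones is near the background. NCL, the gene of nucleolin, had 1162 and 1264 reads with RAME, against 501 and 597 with DMSO (log2 fold change 1.84, adjusted p = 0.00411 from edgeR), and its call held when any 1 library was left out. NPM1, the gene of nucleophosmin, had a log2 fold change of 0.89 (adjusted p = 0.0449 from edgeR), a call lost without RAME replicate 1, without either DMSO library, with library-size scaling (adjusted p = 0.0636 from edgeR), with limma-voom (adjusted p = 0.0514) and with no filter (adjusted p = 0.0536 from edgeR). RBBP7, a histone-binding subunit of several chromatin complexes, had 666 and 1150 reads with RAME, against 4018 and 2863 with DMSO (log2 fold change −1.27, adjusted p = 0.0236 from edgeR), a call lost without RAME replicate 1 and without DMSO replicate 1. ASF1A, which hands histones H3 and H4 to assembly factors, had −0.81 (adjusted p = 0.0958 from edgeR). A list of genes of the SET complex, to which HMGB2 belongs, and of the ANP32 family showed no call among 5 tested genes of 7. SET itself had 5120 and 6412 reads with RAME, against 6099 and 8784 with DMSO (log2 fold change 0.325, adjusted p = 0.423 from edgeR), ANP32A had −0.462 (adjusted p = 0.375 from edgeR), NME1 −0.677 (adjusted p = 0.433 from edgeR) and ANP32E −0.571 (adjusted p = 0.544 from edgeR, and 0.56 on the log2 scale without DMSO replicate 1). NME1 rested on single libraries: its log2 fold change was −1.77 and called without RAME replicate 2 (adjusted p = 0.00906 from edgeR), −0.0702 without RAME replicate 1 and −0.0111 without DMSO replicate 1. By edgeR, 0 of the 5 had an unadjusted p under 0.05, and DESeq2 and limma-voom called none.

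The list of LIN28, IGF2BP and let-7 target genes, to which HMGA2 is related through let-7, had 7 tested genes of 16 and 1 call, a higher one, beside 6.46% higher over all tested genes (median log2 fold change −0.0338). With no filter on reads, 2 genes of the list were called higher. NRAS, which the filter removed, had 10 and 8 reads with RAME, against 0 and 0 with DMSO. HRAS, a small GTPase gene with let-7 sites, had 54 and 36 reads with RAME, against 13 and 21 with DMSO (log2 fold change 2.13, adjusted p = 0.0286 from edgeR), and the call was lost without RAME replicate 1 and without DMSO replicate 1. DICER1 (log2 fold change 0.741, adjusted p = 0.432 from edgeR), IGF2BP3 (−0.462, adjusted p = 0.502 from edgeR) and MYC (0.395, adjusted p = 0.617 from edgeR) did not pass. Of 27 proliferation genes, a programme in which HMGB2 is known to take part, 17 were tested, 4 were lower and none was higher (median log2 fold change −0.631), beside 7.08% lower and 6.46% higher over all tested genes. They were TOP2A, the DNA topoisomerase of dividing cells (log2 fold change −3.33, adjusted p = 0.000453 from edgeR), TMPO, a nuclear lamina gene (−2.09, adjusted p = 0.00575 from edgeR), CKS2, a cofactor of cyclin-dependent kinases (−2.78, adjusted p = 0.00579 from edgeR, and −2.16 without DMSO replicate 1), and PTTG1, the gene of securin (−2.55, adjusted p = 0.0398 from edgeR). The call of PTTG1 was lost without RAME replicate 1, without DMSO replicate 1, where it had −1.59, with limma-voom (adjusted p = 0.105) and after thinning (adjusted p = 0.0534 from edgeR), and its value was −3.55 without RAME replicate 2. The other 13 tested proliferation genes were not called and lay on both sides of 0. Examples are STMN1 (−0.631, adjusted p = 0.135 from edgeR) and MCM3 (0.895, adjusted p = 0.293 from edgeR). The receptors and partners of HMGB1 outside the nucleus, such as AGER and TLR4, gave no test: of 8 genes 5 had 0 reads in all 4 libraries and the other 3 had at most 3 reads in all. AGER stood in 7 rows, of which only the first was read.

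**Figure D5:**
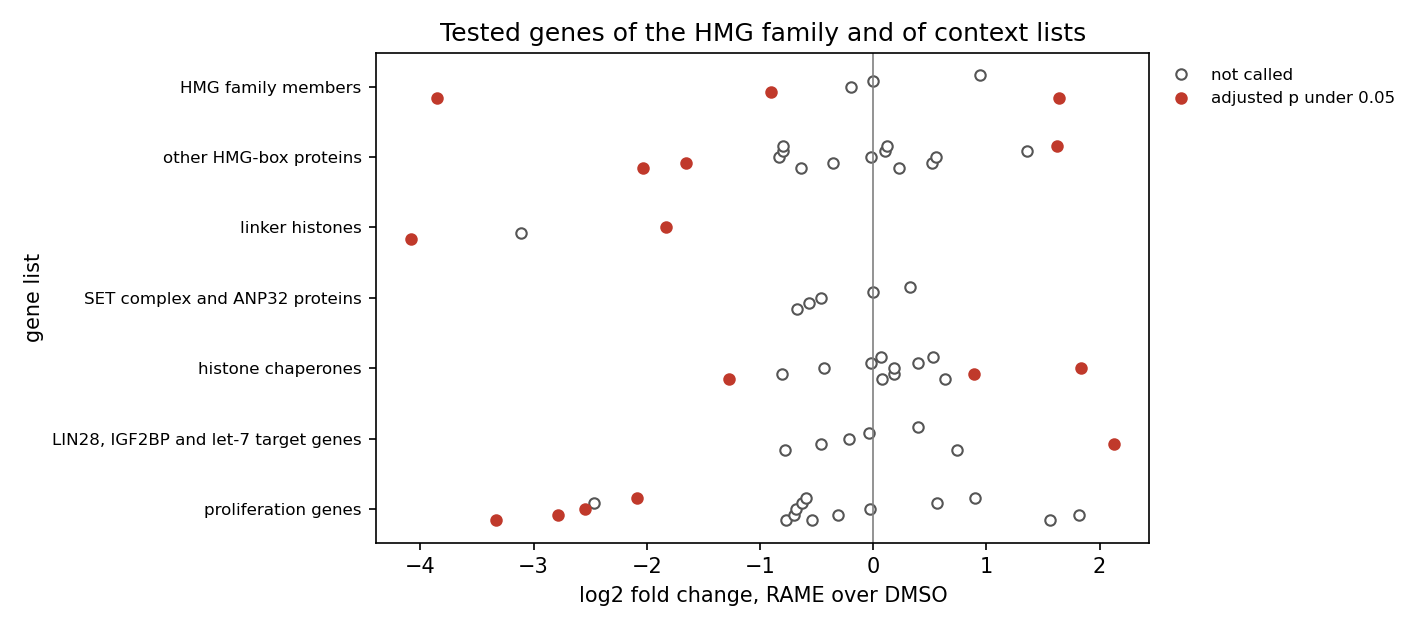
Log2 fold change of RAME over DMSO for each tested HMG gene and for each tested gene of 6 lists of related function (filled red, adjusted p under 0.05; open, not called). The linker histone H1F0 lies at −4.08 and HMGB2 at −3.85, and the lists hold from 0 to 4 called genes.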

How the data were processed

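RNA was sequenced from 2 RAME and 2 DMSO libraries. The authors used the QuantSeq 3′ kit, sequenced single ends of 75 bases and aligned them with Bowtie2 (hg19, per the submitters' processing notes). Counting tool, annotation and strand setting: not given in the sources used here. The deposited table gives whole-number read counts, on which all values here rest, and normalized log2 values. Their log2 values were not used, nor the authors' deposited ratio (fold) and p-value of their own comparison.

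Counts were fitted with edgeR 4.0.16 in R 4.3.3 (filterByExpr with min.count 10 and min.total.count 15, TMM, robust glmQLFit, glmQLFTest, no replicate block), with Benjamini-Hochberg adjustment over all 4517 genes tested. CPM of single genes are scaled by TMM over the reads of tested genes. The summed CPM of the marker lists, ratios of summed reads and limits use library totals. Standard errors are the log2 fold change divided by the root of F. Only the main edgeR fit was first tested on simulated data, in which every gene had the same spread between libraries. With 2 libraries a group the smallest two-sided p of an exact permutation test is 0.333. Replicates differed beyond sampling noise (chi-square per degree of freedom 15.4 for RAME and 28.8 for DMSO). Alternatives were RLE, upper quartile and library-size scaling, no filter, DESeq2 1.42.0, limma-voom (limma 3.58.1), the replicate number as a block, thinning, pseudogene reads added, other thresholds and each library left out. A block pairing opposite-numbered libraries was added after the data were seen. The members and lists were chosen with earlier results of these data known. All 10 members are named. List genes that stood in more than 1 row (AGER, DAXX and TUBB) were read from the first row only. Of each list the 4 genes with the smallest p and a mean of at least 20 reads are named, with all called genes where there were 5 or fewer.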

Additional observations from a re-analysis of the deposited data

How the results depend on the processing

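HMGA2, HMGB2, HMGB1, HMGA1 and HMGN2 kept their direction in all 14 other fits, and HMGA1 and HMGN2 were called in none. Among these fits, the one with pseudogene reads added gave no reads to HMGA2, HMGB2 or HMGB1. The number of HMG genes called lower was 2 in all scalings but upper quartile scaling (1), and 1 with the replicate block, where HMGB1 had adjusted p = 0.186 from edgeR. The main fit held no block because the study's methods describe none. Across 4517 genes the deviations of same-numbered libraries tended to opposite directions (correlation −0.335). Whether the numbers pair the libraries was not tested. The calls of TOX4, HBP1, H1FX, RBBP7 and NPM1 were not made with the block either (adjusted p = 0.0545 to 0.161 from edgeR), while HIST1H1E was called (0.00705). With the replicate block 231 genes were lower and 206 higher over all genes, and with the crossed pairing, chosen after the data were seen, 914 and 873. With 1 library left out, 142 to 499 genes were lower, 169 to 358 higher, 0 to 1 HMG genes lower and 1 higher. At an adjusted p under 0.01, 27 genes were lower and 66 higher, with 0 HMG genes either way, and at 0.1, 531 and 496 genes. With limma-voom 196 genes were lower, and with no filter on reads 481. Log2 fold changes changed sign for HMGN3 (0.105 with upper quartile scaling, −0.112 to 0.108 with 1 library left out), for HMGN1 (−2.21 to 4.42) and HMGN5 (−6.06 to 0.249) with 1 library left out in the fit with no filter, and likewise for ANP32E (−1.2 to 0.56). The causes were not tested. Low counts leave wide intervals for HMGA1, HMGN1 and HMGN5, and HMGB3 and HMGN4 had no reads to compare. DESeq2 gave HMGN1 and HMGN5 no adjusted p.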
